A study of Mus musculus with 17 samples.

Results

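The ligands and receptors of axon guidance were followed in mouse adult neural retinal progenitor cells (mNRPCs) cultured with or without basic fibroblast growth factor (bFGF) and CHIR99021, which blocks the kinase GSK-3. The members were taken by gene symbol and comprised the semaphorins (Sema3 to Sema7), plexins, neuropilins, ephrins, Eph receptors, Slit1 to Slit3, Robo1 to Robo4, netrins (Ntn) and Unc5 receptors. There were 68 of them among the 18836 genes listed in at least 1 library, 35 ligands and 33 receptors. All libraries were poly-A RNA-seq of C57BL/6 retinal cells, 17 in number, 1 for each treatment and day. The treatments were basic medium with neither agent (BM), with bFGF alone (B), with CHIR99021 alone (C) or with the pair of them (BC), each sampled on days 1, 3, 5 and 7, and a day 0 library had no treatment by its label. The study's text speaks of that library as BM-cultured control cells and of the reference values as those before treatment, so its medium is not settled here. The study derived the cells from adult retina and kept them as a passaged culture on Matrigel in N2/B27 medium with bFGF and CHIR99021, so the culture behind every group had grown in both agents. The labels do not say whether libraries of different treatments or days came from separate cultures or animals. No condition had a replicate, so that the p-values below measure departures from the fitted models, and not the spread between cultures. For effects over days 1 to 7 these are departures from additive effects of treatment and day. For effects on single days and changes between days, they are differences in the CHIR99021 effect between days and between cells with and without bFGF.

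Guidance cues are secreted or membrane-bound proteins that steer growing axons and migrating cells by attracting or repelling them, and each cue family has its own receptors. Secreted class 3 semaphorins act through neuropilins that pair with plexins, whereas the membrane-bound semaphorins bind plexins directly. Ephrin-A ligands are tethered by a lipid anchor and mostly bind EphA receptor tyrosine kinases, and ephrin-B ligands span the membrane and mostly bind EphB receptors. Slits repel through Robo receptors, and netrins act through Dcc and Unc5 receptors. In the retina, Eph and ephrin gradients help to map ganglion cell axons onto their targets, and netrin and Slit guide these axons to and through the optic nerve. Several of these families also act in cells that have no axon, including progenitors and blood vessels.

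The libraries were of even depth, with 17571973 to 19428744 expected counts. FPKM, the count scaled by gene length and library total, was used for levels, and genes absent from a library's list were set to 0 there. Fold changes are on the log2 scale from edgeR's quasi-likelihood test on rounded expected counts with TMM normalization, a scaling to the typical gene, and adjusted p-values are Benjamini-Hochberg over all 11272 genes whose FPKM averaged 1 or more across the 16 cultured libraries. The TMM factors of the libraries with bFGF on days 5 and 7 ran from 0.754 to 0.816, below 1.1 to 1.13 in those without, and in FPKM the median gene was lower with bFGF on day 7 by -0.46 (B against BM) and -0.50 (BC against C) on log2(FPKM + 1). The edgeR fold changes below are therefore relative to the typical gene, whereas FPKM values are not. As to the identity of the cells, the retinal progenitor markers Pax6, Sox2, Six3 and Nes were present in every library, for example Sox2 at 29.1 to 89.9 FPKM in the cultured libraries, while Six6 and Rax did not exceed 0.07 FPKM in any of them.

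Of the 68 members, 38 passed the minimum and were tested, namely 23 of the 35 ligands and 15 of the 33 receptors. The other 30 were low: 26 stayed below 1 FPKM in each library and 13 of those below 0.1. Epha3, Sema5a, Sema6b and Sema7a were the 4 untested members that reached 1 FPKM in some library, with highest values of 1.71, 1.62, 1.43 and 1.60. The EphA receptors other than Epha2, Slit1 and Slit3, Unc5a, Unc5c and Unc5d, Robo3 and Robo4, and Plxna4, Plxnb3 and Plxnc1 all fell short of the minimum. The highest mean levels over the 17 libraries belonged to the receptor tyrosine kinase Epha2 (119 FPKM), the semaphorin receptor Plxnb2 (116), the co-receptor Nrp2 (56.9), Plxna1 (52.3), the secreted Sema3c (44.2) and the laminin-binding netrin Ntn4 (43.8). The map of levels by library shows this order and its change with bFGF.

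**Figure D1:**
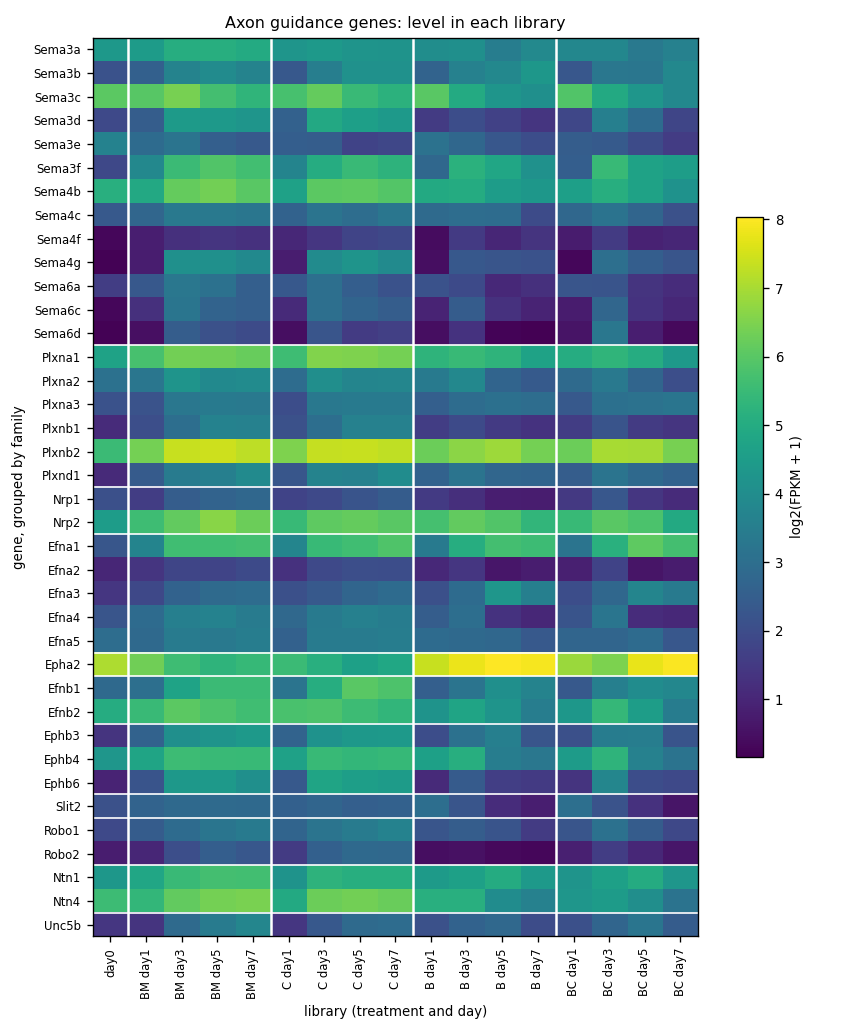
Level of the 38 tested members in each of the 17 libraries. Rows are genes grouped by family, columns are libraries by treatment and day, and the colour gives log2(FPKM + 1). Epha2 is brightest in the B and BC libraries, where it runs from 88.2 to 260.5 FPKM, while most plexins, ephrin-B ligands and EphB receptors are darker there than in BM and C.

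With bFGF, most of the guidance genes expressed in these cells were lower, and Epha2 stood on the opposite side. Over days 1 to 7, 29 of 38 members passed the test, against 68.4% of all genes tested. Of these, 27 fell, where 33.9% of all genes did, and 2 rose, where 34.6% of all genes did. The median log2 fold change was -0.78 over the members and -0.0023 over all genes tested. The 2 that rose were Epha2 and its ligand family member Efna3, and the largest falls were those of Robo2, Ephb6, Sema3d, Plxnb1 and Ntn4. Of these, Robo2 passed the minimum only through the libraries without bFGF. With scaling to library totals in place of TMM, the members split into 2 higher and 30 lower and all genes into 2245 higher and 5702 lower, with the median over all genes moved to -0.29.

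**Figure D2:**
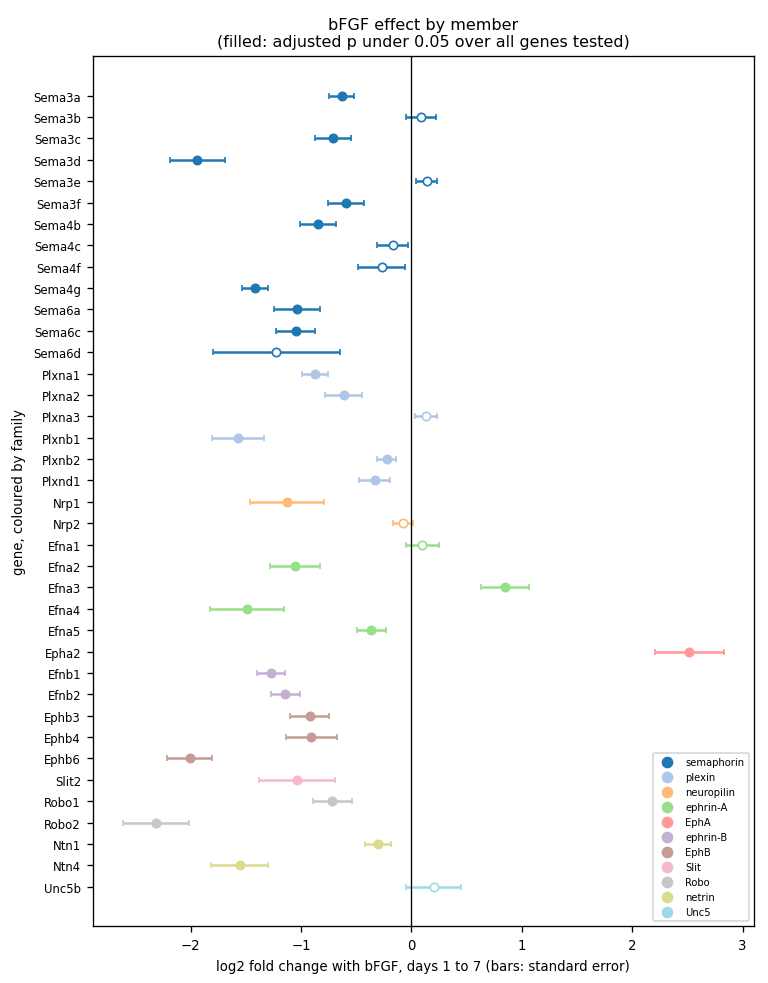
Log2 fold change with bFGF over days 1 to 7 for the 38 tested members. Points are the estimates of the additive model, bars are standard errors, colours are families, and filled points have an adjusted p under 0.05. Epha2 (2.52) and Efna3 (0.85) are the filled points right of 0, and the other 27 filled points lie left of it, down to Robo2 (-2.31). Robo2 passed the minimum only through the libraries without bFGF.

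The falls were spread over ligands and receptors. Among the 23 tested ligands 16 fell and 1 rose, with a median log2 fold change of -0.85, and among the 15 tested receptors 11 fell and 1 rose, with a median of -0.72. By family, all tested members fell in the EphB receptors (3), Robo receptors (2), ephrin-B ligands (2), netrins (2) and the Slits (1). In the plexins 5 of 6 fell, in the semaphorins 8 of 13, in the ephrin-A ligands 3 of 5 and in the neuropilins 1 of 2. The remaining families had a single tested member, Epha2 for EphA and Unc5b for Unc5. In FPKM, the 8 libraries with bFGF lay wholly above the 8 without for 1 member, Epha2, where this held for 1.39% of all genes tested, and wholly below for 2, Plxna1 and Sema3a, where it held for 4.44%.

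Shared letters upstream of the start site were looked for in 59 members with an entry among the RefSeq promoters (GRCm38.p6, a patch release of the assembly also called mm10), 75 windows of 250 bases since some genes have several starts. The motifs were CTTTGA, the core of TCF/LEF sites, TGANTCA of AP-1 and CCGGAAG of ETS factors, on either strand and not overlapping each other in the windows shown. The TCF/LEF core was in 4 member windows (Nrp2, Epha2, Sema3e and Robo4), 5.33% against 13.8% of all 32851 windows. AP-1 was in 3 (Sema4c, Sema4d and Sema6b), 4.0% against 6.75%, and ETS in 2 (Ephb6 and Plxnb1), 2.67% against 6.91%. The windows of the member that rose most with bFGF (Epha2), of the member called for CHIR99021 (Sema3e) and of a strongly fallen receptor (Ephb6) are given in lower case with the matched letters in capitals, and lie on the + strand at chr4:141300971-141301220, chr5:14025026-14025275 and chr6:41605261-41605510. The Epha2 and Sema3e windows end just before the annotated genes begin. That of Ephb6 lies inside its annotated gene, which begins at chr6:41603834, and so precedes a start within it. A match is a description of the letters and not a site.
Epha2: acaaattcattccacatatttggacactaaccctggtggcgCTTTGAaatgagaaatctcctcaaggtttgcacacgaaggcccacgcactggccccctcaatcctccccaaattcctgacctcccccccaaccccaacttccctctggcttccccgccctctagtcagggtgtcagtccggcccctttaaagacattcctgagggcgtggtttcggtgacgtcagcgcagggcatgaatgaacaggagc
Sema3e: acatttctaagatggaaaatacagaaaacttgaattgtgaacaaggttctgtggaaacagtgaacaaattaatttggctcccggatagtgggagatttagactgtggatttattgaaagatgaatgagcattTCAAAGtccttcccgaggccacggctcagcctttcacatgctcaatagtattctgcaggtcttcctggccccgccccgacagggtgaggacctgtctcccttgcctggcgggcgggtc
Ephb6: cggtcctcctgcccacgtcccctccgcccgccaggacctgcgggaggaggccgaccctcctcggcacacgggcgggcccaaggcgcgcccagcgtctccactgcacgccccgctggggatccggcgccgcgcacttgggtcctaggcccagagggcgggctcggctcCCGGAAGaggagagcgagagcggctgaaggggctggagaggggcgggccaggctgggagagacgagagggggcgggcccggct

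Epha2 is a receptor tyrosine kinase that binds ephrin-A ligands and is widely used by epithelial and progenitor cells. It stood at 133 FPKM on day 0. In BM it was at 80.0, 46.8, 37.6 and 42.6 FPKM on days 1, 3, 5 and 7, and in C at 44.9, 34.0, 24.1 and 27.7. In B it was at 165, 221, 260.5 and 243, and in BC at 113, 88.2, 216 and 251. Each library with bFGF was thus above each library without, and BC on day 3 was the lowest of those with bFGF. The log2 fold change with bFGF was 2.52 ± 0.31 (SE, n = 8 libraries with and 8 without, edgeR adjusted p = 8.83e-05). Beside the other Eph receptors, Epha2 held 86.1% of the summed Eph FPKM on day 0, and by day 7 its share was 34.5% in BM and 24.2% in C but 94.1% in B and 94.2% in BC.

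The ephrin-A ligands, the usual partners of EphA receptors, went in different directions. Efna3 was at 2.64 to 6.66 FPKM without bFGF (median 5.41) and 3.04 to 18.8 with it (median 7.96), so the groups overlapped, and it rose by 0.85 ± 0.22 on the log2 scale (edgeR adjusted p = 0.00427). Efna1, a high-affinity ligand of Epha2 and the most abundant ephrin-A here, had a median of 48.0 FPKM without and 40.6 with bFGF and a log2 fold change of 0.10 ± 0.15 (adjusted p = 0.572). Efna4 fell by 1.49 ± 0.34 (adjusted p = 0.00217), from a median of 10.01 FPKM to 2.56. Its levels in B were 4.56, 6.95, 1.5 and 1.04 FPKM on days 1, 3, 5 and 7, so the low values were those of days 5 and 7, as in BC (3.61, 8.30, 1.25 and 1.08). Efna2 and Efna5 fell too, with log2 fold changes of -1.05 and -0.36, and the call of Efna5 was lost without the BC library of day 3 or either bFGF library of day 7 (-0.32 to -0.31).

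The ephrin-B ligands and the EphB receptors were lower together. Efnb2, a ligand best known from the artery side of vessels and from neural progenitors, was at 39.8 to 65.2 FPKM without bFGF and at 9.95 to 41.6 with it, the highest of the latter being BC on day 3. Its log2 fold change was -1.14 ± 0.13 (adjusted p = 6.55e-05). Efnb1 had a log2 fold change of -1.27 ± 0.12 (adjusted p = 2.37e-05), and its level in BM went from 7.29 FPKM on day 1 to 44.9 on day 7, beside 4.79 and 11.8 in B. Ephb4, the preferred receptor of Efnb2 and the most abundant EphB here, was at 26.0, 46.5, 44.2 and 42.8 FPKM in BM and at 24.1, 33.5, 10.3 and 8.67 in B on days 1, 3, 5 and 7. On days 1 and 3 the arms were thus closer than on days 5 and 7, and its log2 fold change over all days was -0.91 ± 0.23 (adjusted p = 0.00398). Without day 5 or without day 7 this was -0.69 and -0.60 and no longer passed the test.

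Ephb6, an Eph receptor that lacks kinase activity, had the largest fall among the Eph receptors. It was at 0.92 FPKM on day 0, at 3.62, 19.3, 19.8 and 16.1 in BM and at 4.16, 26.0, 22.9 and 21.3 in C. In B it was at 1.14, 4.33, 2.10 and 1.83, and in BC at 1.52, 12.7, 3.04 and 2.77. On each day the libraries with bFGF were the lower ones, and over all days only BC on day 3 and B on day 3 reached the range of the libraries without. The log2 fold change was -2.01 ± 0.21 (adjusted p = 3.28e-05), and that of Ephb3 was -0.92 ± 0.18 (adjusted p = 0.00085).

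Among the secreted class 3 semaphorins, which repel axons that carry neuropilins, 4 of 6 tested members fell. Sema3d was at 4.61 to 29.3 FPKM without bFGF (median 20.4) and at 1.61 to 10.7 with it (median 2.53), with a log2 fold change of -1.94 ± 0.25 (adjusted p = 0.000101). Sema3c, the most abundant semaphorin, was at 61.8, 84.1, 50.2 and 38.6 FPKM in BM and at 63.1, 30.6, 18.3 and 15.9 in B on days 1, 3, 5 and 7. Its values were lower on day 7 than on day 1 in both arms, and lower with bFGF from day 3 on (log2 fold change over all days -0.71 ± 0.16, adjusted p = 0.00215). Sema3a, the prototype of growth cone collapse, was at 17.4 to 33.3 FPKM without bFGF and at 9.07 to 15.8 with it, without overlap, with a log2 fold change of -0.63 ± 0.11 (adjusted p = 0.000573). Sema3f had a log2 fold change of -0.60, and Sema3b and Sema3e of 0.08 and 0.14, which did not pass.

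The membrane-bound semaphorins gave a similar picture. Sema4g was at 0.75 FPKM in BM and C on day 1 and at 13.8 and 14.4 on day 7, beside 0.36 and 0.24 in B and BC on day 1 and 3.40 and 3.75 on day 7. Its log2 fold change was -1.42 ± 0.12 (adjusted p = 7.95e-06), and it thus rose during culture in both arms while staying lower with bFGF. Sema4b, at a median of 64.5 FPKM without and 24.0 with bFGF, changed by -0.85 on the log2 scale, and Sema6a and Sema6c, class 6 semaphorins that bind A-type plexins, by -1.03 and -1.05. Sema6d had a log2 fold change of -1.22 ± 0.58 that missed the threshold (adjusted p = 0.0733). It was at 0.40, 4.62, 3.31 and 2.86 FPKM in BM, at 0.36, 1.47, 0.17 and 0.12 in B, and at 0.49, 8.64, 0.78 and 0.29 in BC on days 1, 3, 5 and 7. BC on day 3 was the highest of all, and without that library the log2 fold change was -1.62 (adjusted p = 0.0104). Sema4c and Sema4f had log2 fold changes of -0.17 and -0.27 and did not pass.

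The receptors of the semaphorins differed in size of change. Plxnb1, a receptor of class 4 semaphorins, was at 3.13, 7.11, 11.5 and 11.3 FPKM in BM and at 2.02, 2.83, 1.84 and 1.47 in B on days 1, 3, 5 and 7, with a log2 fold change of -1.57 ± 0.24 (adjusted p = 0.000249). Plxnb2, the most abundant plexin, was at a median of 157 FPKM without and 92.5 with bFGF, and its log2 fold change was only -0.22 ± 0.09 (adjusted p = 0.0322), a call that was lost without the BM or B library of day 3 or either bFGF library of day 7 (-0.21 to -0.20). Plxna1, which pairs with neuropilins, did not overlap between the groups, at 46.6 to 91.3 FPKM without and 20.1 to 43.5 with bFGF, with a log2 fold change of -0.87 ± 0.12 (adjusted p = 0.000149). Plxna2 and Plxnd1 fell with log2 fold changes of -0.61 and -0.33, the latter lost when any 1 library of days 3, 5 or 7 other than BM on day 3 was left out (-0.35 to -0.27), while Plxna3 had 0.13 and did not pass. Nrp1, the receptor of Sema3a and a co-receptor of vascular growth factor, was at 2.04 to 5.99 FPKM without and 0.73 to 3.94 with bFGF, and its log2 fold change was -1.13 ± 0.34 (adjusted p = 0.00982). That call was lost without day 5 (-0.94) and without day 7 (-0.81). Nrp2 was far more abundant than Nrp1 and showed -0.08 ± 0.09 (adjusted p = 0.464). With library totals as the scale Nrp2 passed as lower, at -0.36.

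Slit2, the only Slit above the minimum, had its own course. In BM it was at 5.30, 6.25, 6.32 and 6.27 FPKM on days 1, 3, 5 and 7 and in C at 4.94, 5.63, 4.88 and 5.03, so it was nearly flat without bFGF. In B it went through 7.01, 3.69, 1.25 and 0.78 and in BC through 7.16, 3.53, 1.46 and 0.52. It was thus higher with bFGF on day 1 and lower from day 3 on, and its log2 fold change over all days was -1.04 ± 0.35 (adjusted p = 0.0174). That call did not hold without day 5 (-0.83), without day 7 (-0.55) or without the B library of day 7 (-0.86). Its receptor Robo2 was at 1.01, 3.18, 4.77 and 3.92 FPKM in BM and at 0.37, 0.42, 0.28 and 0.23 in B, and Robo2 had the largest fall of all members (-2.31 ± 0.30, adjusted p = 0.000116). In BC Robo2 stood between B and BM on each day, at 0.80, 2.04, 1.05 and 0.55. Its median was 4.345 FPKM without and 0.485 with bFGF, and with bFGF it averaged below the minimum. Robo2 thus passed the minimum only through the libraries without bFGF, which favours a fall, and the size of its fold rests on low values. Robo1 was the more abundant Robo and changed by -0.72 ± 0.18 (adjusted p = 0.00349), from a median of 8.28 FPKM to 3.74.

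Of the netrins, Ntn4, a netrin of basement membranes, was at 40.7, 69.9, 83.5 and 86.5 FPKM in BM and at 34.1, 33.8, 15.1 and 11.2 in B on days 1, 3, 5 and 7. The arms separated with time, and the log2 fold change over all days was -1.56 ± 0.26 (adjusted p = 0.000403). Ntn1, the classical attractant of commissural and ganglion cell axons, fell less (-0.30 ± 0.12, adjusted p = 0.0346, lost when any 1 of 7 libraries of days 3 to 7 was left out, at -0.31 to -0.25) and overlapped between the groups, at 17.4 to 50.4 FPKM without and 17.9 to 31.1 with bFGF. Unc5b, the one Unc5 receptor above the minimum, was at 1.54, 6.42, 9.93 and 12.7 FPKM in BM and at 3.31, 5.21, 6.04 and 3.02 in B, with log2 differences of 1.12 on day 1 (adjusted p = 0.0576) and -0.79 on day 7 (adjusted p = 0.0343). Over all days its log2 fold change was 0.20 ± 0.25 (adjusted p = 0.478). Dcc, the other main netrin receptor, was below the minimum, with a median of 1.28 FPKM without and 0.05 with bFGF, and its paralog Neo1 was at medians of 28.3 and 28.8 FPKM.

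**Figure D3:**
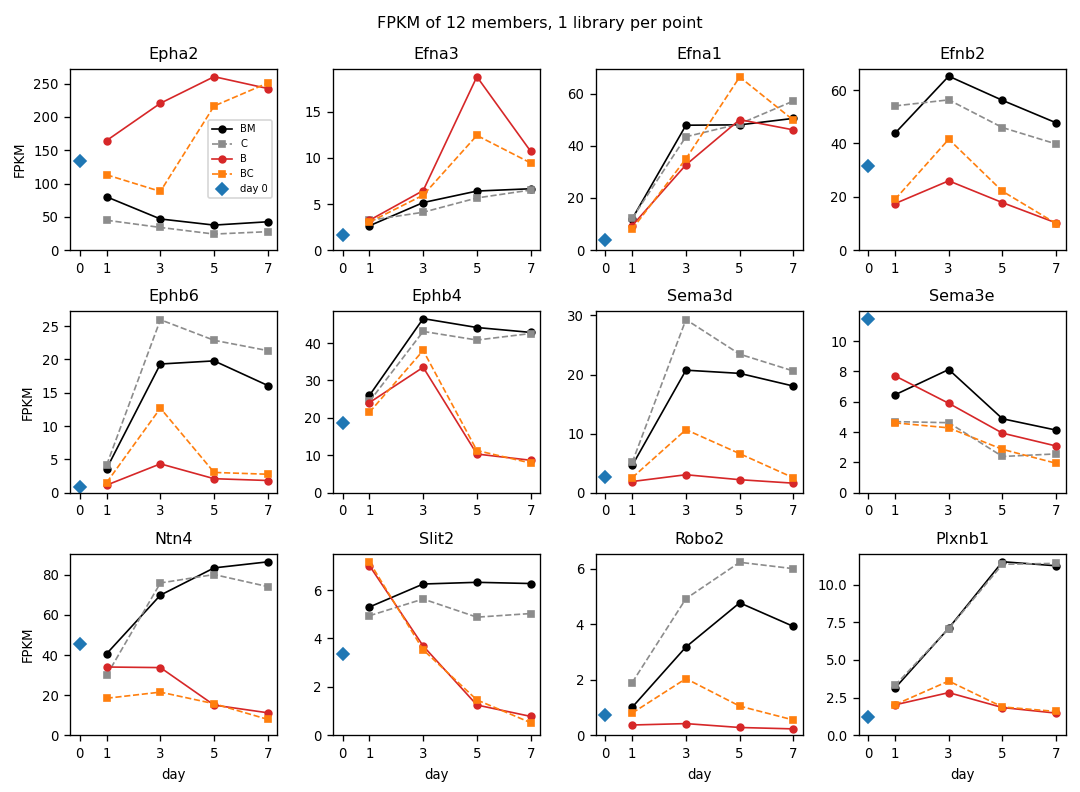
FPKM of 12 members against day, 1 library per point, with black for BM, grey for C, red for B, orange for BC and a blue diamond for day 0. The y axes start at 0 and differ between genes. Epha2 separates upward with bFGF, Ephb6, Robo2, Plxnb1 and Ntn4 separate downward, and Slit2 starts above on day 1 (7.01 and 7.16 FPKM) and ends below on day 7 (0.78 and 0.52).

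The bFGF effect was next estimated on each day in a model with a mean for each day with and without bFGF and CHIR99021 as a covariate, so that each mean rested on 2 libraries. On day 1, 3 members were higher (Epha2, Slit2 and Plxna3) and 8 lower, where 6.21% and 4.46% of all genes were. On day 3 there were 1 and 22, against 25.4% and 25.0% of all genes, on day 5 4 and 25, against 37.2% and 38.6%, and on day 7 4 and 31, against 38.8% and 39.6%. The share of members that were lower was thus above the background on each day, and the share that were higher was below it on days 3, 5 and 7. The median log2 fold change of the members was -0.19, -0.49, -0.87 and -1.24 on days 1, 3, 5 and 7. The 8 that were lower on day 1 (Ephb6, Efnb2, Sema4g, Sema3f, Efnb1, Ephb3, Plxnb1 and Efna4) were all lower on day 7 as well. Efna1, Efna3, Epha2 and Sema3b were the 4 higher members on day 7, at 0.38, 1.06, 3.39 and 0.53. With library totals as the scale, 2 were higher and 33 lower on day 7, and Efna1 and Sema3b then had log2 fold changes of -0.16 and -0.0028.

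**Figure D4:**
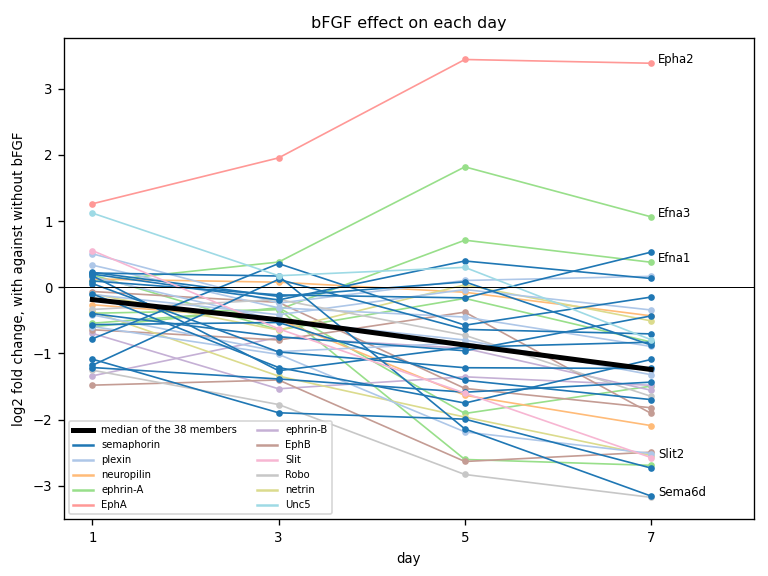
Log2 fold change with against without bFGF on days 1, 3, 5 and 7, a line for each of the 38 tested members coloured by family, with the median of the members in black. The median goes from -0.19 to -1.24, while Epha2 goes from 1.26 to 3.39 and Sema6d ends at -3.16.

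The difference between the days was tested itself. The bFGF effect on day 7 was more negative than on day 1 for 25 members, where this held for 34.1% of all genes, and more positive for 3 (Epha2, Efna3 and Efna1), where it held for 31.3%. The largest differences were those of Sema6d (-3.37 ± 1.20 log2, edgeR adjusted p = 0.0256), Slit2 (-3.13 ± 0.20, adjusted p = 2.72e-07), Ntn4 (-2.18 ± 0.30, adjusted p = 4.85e-05), Efna4 (-2.15 ± 0.24, adjusted p = 1.06e-05) and Epha2 (2.12 ± 0.33, adjusted p = 0.000144). For Slit2 the sign turned, from 0.56 on day 1 to -2.57 on day 7, with both past the test. Sema6d was low on day 1, with an effect of 0.22 ± 0.85 there, and its difference lost the call when any 1 of 6 libraries of days 1 and 7 was left out (-3.95 to -2.80). Efnb2 and Sema4g were already lower on day 1, by -1.34 and -1.21, and their differences of -0.22 each did not pass. With library totals as the scale, the calls of Efna1 and Efna3 were lost, at 0.31 and 0.53.

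Seen along the culture, most of the guidance genes rose without bFGF, while with it the share that rose was near that of all genes. In BM and C, 31 of 38 members were higher on day 7 than on day 1, where 32.3% of all genes were, and 3 were lower (Epha2, Sema3e and Sema3c), where 31.5% of all genes were. Their median log2 change was 1.16, beside 0.019 over all genes tested. Sema4g (4.21 ± 0.23), Sema6d (2.69 ± 0.72), Efnb1 (2.68 ± 0.16) and Unc5b (2.57 ± 0.34) led. All 5 ephrin-A ligands, all 6 tested plexins and all 3 tested EphB receptors were among those that rose. In B and BC, 15 were higher (39.5%) and 9 lower (23.7%) on day 7, where 35.8% and 39.5% of all genes were. The median log2 change was -0.0003, beside -0.045 over all genes tested. Both arms shared 14 rises, 5 members rose without and fell with bFGF (Efna4, Ephb4, Ntn4, Plxna2 and Sema4c), and Epha2 fell without and rose with it. The shares of all genes with these joint courses were not counted. Slit2 fell by 3.01 with bFGF and changed by 0.12 without, which did not pass. With library totals as the scale, 10 members were higher and 16 lower with bFGF. The fall of Epha2 without bFGF lost its call without the BM library of day 1 (-0.72), and the fall of Sema4c with bFGF without the B library of day 7 (-0.29). The rise of Sema6d without bFGF lost its call without C on day 1 or BM on day 7 (2.08 to 2.42). That of Nrp1 lost it when any 1 library of days 1 or 7 other than C on day 7 was left out (0.78 to 1.185). That of Sema4f lost it without BM on day 1 or C on day 7 (0.73 to 1.04). With bFGF, the rise of Ntn1 lost its call without B or BC on day 1 or BC on day 7 (0.30 to 0.46). The rise of Sema6c with bFGF lost its call without BC on day 1 or day 7 (0.56 to 0.62).

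**Figure D5:**
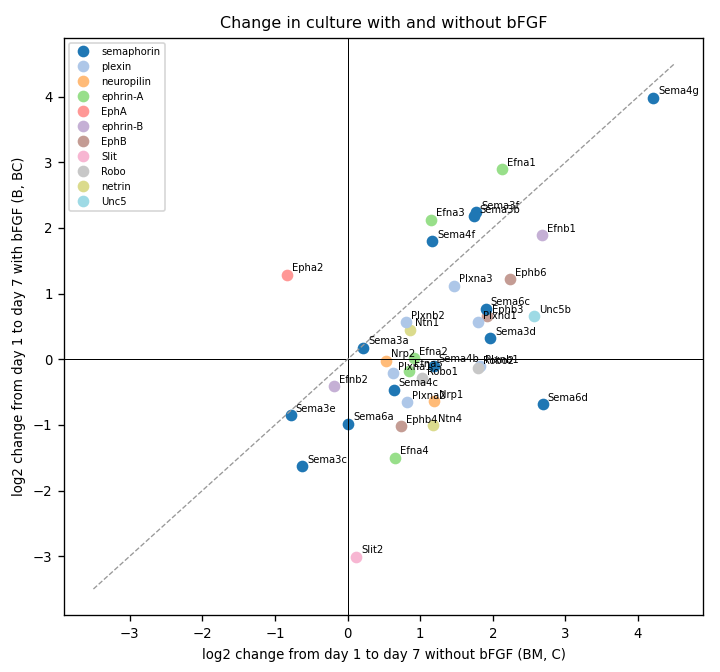
Log2 change from day 1 to day 7 without bFGF (x axis, BM and C) and with bFGF (y axis, B and BC) for the 38 tested members, coloured by family, with a dashed line of equal change. The points lie mostly right of 0 and below the dashed line, Epha2 lies in the upper left (-0.83 and 1.29) and Slit2 at the bottom (0.12 and -3.01).

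Few members passed the test for CHIR99021. It came from the additive model, whose spread (24.7%) also holds changes of the bFGF effect with day. In the model by day the spread was 10.04%, and CHIR99021 was not tested there. A small count therefore does not show that CHIR99021 left the other members unchanged. With day and bFGF in the additive model, 1 of 38 passed, beside 0.337% of all genes tested. This was Sema3e, a secreted semaphorin that binds Plxnd1 without a neuropilin, with a log2 fold change of -0.66 ± 0.09 (edgeR adjusted p = 0.0201). Sema3e was at 11.5 FPKM on day 0, at 6.46, 8.13, 4.88 and 4.13 in BM and at 4.69, 4.62, 2.39 and 2.56 in C on days 1, 3, 5 and 7. With bFGF it was at 7.71, 5.90, 3.93 and 3.08 in B and at 4.61, 4.28, 2.86 and 1.94 in BC, so it was lower with CHIR99021 in 8 of 8 pairs of the same day and bFGF status. Leaving out any 1 of 6 libraries (BM or BC on day 3, C or B on day 5, C or B on day 7) ended the call, at -0.67 to -0.60. Sema3a (-0.45 ± 0.11, adjusted p = 0.136) and Nrp2 (-0.22 ± 0.09, adjusted p = 0.422) were also lower in 8 of 8 pairs, and Robo2 (1.11 ± 0.29, adjusted p = 0.153), Sema3d (0.68 ± 0.24, adjusted p = 0.304), Ephb6 (0.57 ± 0.20, adjusted p = 0.304) and Robo1 (0.34 ± 0.17, adjusted p = 0.574) higher in 8 of 8, without passing. The share of all genes with 8 of 8 pairs in 1 direction was not counted. DESeq2 called Sema3a and Robo2 beside Sema3e, with adjusted p of 0.00935 and 0.00796. Epha2 was lower with CHIR99021 in 7 of 8 pairs, with a log2 fold change of -0.54 ± 0.29 (adjusted p = 0.593).

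No member passed the test of an interaction of bFGF and CHIR99021, where 0.00887% of all genes tested did. DESeq2 and limma also gave 0 at an adjusted p under 0.05. The spread of the edgeR model was 25.4%, and it too held changes of the bFGF effect with day. At an unadjusted p under 0.05 there were 5 members (Nrp1, Robo2, Sema3a, Sema3b and Sema6d). The share of all genes under that cut was not counted, so it does not single these members out. Between BC and B, 5, 10, 6 and 8 of 38 members differed by at least 1.5-fold in FPKM on days 1, 3, 5 and 7, where 3.73%, 14.7%, 11.5% and 10.8% of all genes tested did. Day 3 had the highest count over the members and over all genes alike.

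Day 0 was a single library, so its values are set side by side with no test. A change of at least 2-fold on log2(FPKM + 1) was counted. In BM on day 7, 23 of 38 members were higher than on day 0 and 2 lower (Epha2 and Sema3e), where 21.1% and 13.0% of all genes were. In B on day 7, 7 were higher and 8 lower, where 11.9% and 23.2% of all genes were. The 7 included Efna1 (3.84 FPKM on day 0 and 46.1 in B on day 7) and Sema3f (2.67 and 16.5), and the 8 included Sema3c (64.7 and 15.9), Ntn4 (45.8 and 11.2) and Efnb2 (31.5 and 10.2). The median difference of the members from day 0 on log2(FPKM + 1) was 1.39 in BM and -0.03 in B on day 7, beside 0.19 and -0.27 over all genes. Efna1 was at a like level in BM (50.6 FPKM) and in B, while Ephb6 was at 0.92 FPKM on day 0, 16.1 in BM and 1.83 in B.

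Other genes of the pathway were mixed in direction, and their difference from the members was not tested. Of a list of 94 co-receptors, adhesion molecules and signalling genes, 92 were listed and 67 tested. With bFGF over days 1 to 7, 31 of those rose and 22 fell, where 34.6% and 33.9% of all genes tested did. The share that fell was thus near that of all genes. The median log2 fold change was 0.04, beside -0.0023 over all genes tested. The same shares of all genes stand beside the sublists below, which are small. All genes of the list named here passed the test. Co-receptors and other cues were the sublist with most falls (8 of 13, with 4 rises and a median of -0.65), among them the netrin and Wnt antagonist Draxin (-5.55 ± 0.79), the adhesion proteins Flrt1 (-4.68 ± 0.60) and Flrt3 (-1.86 ± 0.25), and Ntng2, a netrin-G (-1.91 ± 0.40). Draxin was at 0.09 to 23.7 FPKM without bFGF and at most 0.11 with it, and Flrt1 at 0.06 to 8.33 and at most 0.16. Both passed the minimum only through the libraries without bFGF, so the size of their folds rests on values near 0. Slit-Robo signalling had 6 rises and 1 fall among 9, semaphorin-plexin signalling 8 and 5 among 17, Eph-ephrin signalling 3 and 5 among 10 and the axonal adhesion molecules 2 and 1 among 4. The largest rises were those of the axonal adhesion molecule Nrcam (2.97 ± 0.40), the Slit-Robo GTPase-activating protein Srgap3 (2.59 ± 0.31), the exchange factor Vav3 (1.62 ± 0.22), the growth cone protein Gap43 (1.45 ± 0.18) and the plexin-binding GTPase Rnd1 (1.36 ± 0.21). Vav2, a paralog of Vav3, went the other way (-1.66 ± 0.24).

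Markers of other cells moved with bFGF too. The summed FPKM of 4 pericyte markers was 35.7 to 480 without and 8.94 to 40.8 with bFGF, carried by Acta2 and Pdgfrb, while Rgs5 and Cspg4 stayed at or below 0.1. That of 5 fibroblast markers was 2.68 to 55.8 without and 1.59 to 6.85 with bFGF, led by Col1a1 and Dcn. Of the retinal progenitor markers, Pax6 was at 42.2 to 207 FPKM without and 10.7 to 82.4 with bFGF. The 11 neuron and ganglion cell markers summed to 3.46 to 12.2 without and 4.64 to 10.7 with bFGF. Tubb3 (1.23 to 8.22 without and 2.79 to 6.19 with bFGF), Isl1 (1.02 to 3.26 and 1.32 to 4.69) and Map2 (0.51 to 3.80 and 0.25 to 0.70) carried the sum, while Rbfox3, Pou4f2 and Stmn2 were at or below 0.04. Sums were at most 3.72 for 6 endothelial, 2.52 for 5 microglial and 2.03 for 5 pigment epithelium markers. Of the 8 Muller glia and astrocyte markers, Vim carried nearly all of a sum of 1243 to 2620 without and 1657 to 4303 with bFGF. The part of these cell markers in the falls of the guidance genes was not tested, and in bulk samples fewer cells of a type and less RNA per cell cannot be told apart.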

How the data were processed

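RNA-seq of 17 mNRPC libraries, 1 per treatment and day, was analysed. The authors purified poly-A RNA and sequenced it on the BGISEQ-500. The submitters' processing notes name Bowtie2, RSEM and mm10, whereas the study's methods name Bowtie 2 and eXpress. Each gene's expected count, which need not be whole, and its FPKM, scaled by length and library total, were deposited by the authors. Unlisted genes were set to 0. The members and gene lists were chosen with earlier results of these data known.

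Expected counts were rounded and tested with edgeR 4.0.16 (TMM, quasi-likelihood, Benjamini-Hochberg, threshold 0.05) in R 4.3.3, over genes whose FPKM averaged 1 or more across the 16 cultured libraries. The models were day, CHIR99021 and bFGF as additive terms, these with the interaction, and a mean per day and bFGF status with CHIR99021 as a covariate. With no replicates, the biological coefficient of variation (24.7%, 25.4% and 10.04%) holds departures from these models. The day 0 library entered no test. Some marker and pathway genes of the lists are not reported here.

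Named genes were the most abundant member of each family, the 10 largest rises and falls with bFGF, members called for CHIR99021, the 5 largest differences between days 7 and 1, and the 5 largest rises and falls of the pathway list. Others are named in the account of their family. In simulated data over 11272 genes, 100 of 100 genes changed by 1 and 100 of 100 changed by 2 (log2) were called for bFGF, and 78 and 99 of 100 on day 7. Of the unchanged genes, 11 were called for bFGF and 8 on day 7. The simulation had no effect of day and the same bFGF effect on all days, and its spread lay between the 10.04% and 24.7% fitted here. It therefore does not show how the additive test performs where the bFGF effect changes with day. Alternatives were DESeq2 1.42.0, limma 3.58.1 on log2(FPKM + 1) or log2(FPKM + 0.1), quantile normalization, other size factors, other minimums, and leaving out each day or library. Tables and plots were made with Python 3.11.15, pandas 2.3.3 and matplotlib 3.10.9.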

Additional observations from a re-analysis of the deposited data

Results flagged for a closer look

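The bFGF effect differed between day 7 and day 1 in 28 members by a test of the difference itself (edgeR adjusted p under 0.05). It was more negative for 25 and more positive for 3, where this held for 34.1% and 31.3% of all genes tested. With library totals as the scale, 30 were more negative and 1 more positive, and Efna1 and Efna3 lost the call. The effect on day 7 minus that on day 1, in log2, is given here. Among the semaphorins it was -3.37 for Sema6d, -1.65 for Sema3d, -1.28 for Sema4b, -1.13 for Sema6c, -1.10 for Sema4c, -1.003 for Sema3c and -0.99 for Sema6a. Of their receptors, Plxnb1 had -1.92, Plxna2 -1.48, Plxnd1 -1.23, Plxna1 -0.84, Nrp1 -1.83 and Nrp2 -0.56. Among the ephrin-A ligands the difference was -2.15 for Efna4, -1.02 for Efna5, -0.90 for Efna2, 0.77 for Efna1 and 0.98 for Efna3, and for their receptor Epha2 it was 2.12. Efnb1 had -0.79, and the EphB receptors Ephb4, Ephb3 and Ephb6 had -1.76, -1.26 and -1.01. Slit2 had -3.13, Robo2 -1.92 and Robo1 -1.31, Ntn4 had -2.18 and Unc5b -1.91. When any 1 of several libraries was left out, Efna2, Ephb6, Nrp1, Sema3d, Sema6a and Sema6d lost the call, and Efna3 lost it without C on day 1 (0.71), Efnb1 without B on day 1 (-0.53) and Robo2 without BC on day 1 (-1.76).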

How the results depend on the processing

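Between 21 (without day 7) and 34 (no minimum level) members passed for bFGF over days 1 to 7 under the alternatives, beside 29 as reported, and none of the named members with a call changed direction. With no minimum level 18700 genes were tested, members outside the 38 among them, so the 34 is not a count out of 38. The number higher was 4 under limma with quantile-normalized values (Epha2, Efna3, Sema3e and Plxna3), beside 2. For CHIR99021 the count was 0 with a minimum mean FPKM of 5, which leaves out Sema3e, 0 without day 1, day 3, day 5 or day 7, and 3 with DESeq2 (Sema3e, Sema3a and Robo2). Leaving out each library in turn gave 24 to 30 members for bFGF (2 higher, 22 to 28 lower), 0 to 1 for CHIR99021, 0 for the interaction, 22 to 28 for the difference between days, 31 to 34 for the course without bFGF and 22 to 26 with it; a lone library of a day and arm was assumed to vary like the others. Of 611 repeats of the bFGF fold change over days 1 to 7, run for the named members alone, 584 stayed on their side of the threshold, 14 lost the call (Plxnb2, Slit2, Nrp1 and Ephb4) and 13 gained one (Sema6d, Nrp2 and Sema3e). Outside these, Efna5, Ntn1 and Plxnd1 lost the bFGF call, and Sema3e its CHIR99021 call, when single libraries were left out. The cause was not tested. Libraries of the same day were compared within that day, since day is a term of the additive model, and the labels give no replicate numbers to block on. Depth was even, and members below 1 FPKM were not tested.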
